A study of Homo sapiens with 72 samples.

Results

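The genes described here are 30 target genes and regulators of the transcription factor p53. They are the rows whose symbol is CDKN1A, MDM2, MDM4, PPM1D, GADD45A, BTG1, BTG2, CCNG1, PLK2, PLK3, BBC3, PMAIP1, BAX, FAS, TNFRSF10B, AEN, PHLDA3, TP53INP1, TP53I3, SPATA18, TRIAP1, ZMAT3, XPC, DDB2, POLH, RRM2B, FBXO22, SESN1, TIGAR or FDXR. Each of the 30 matched 1 of the 61541 Ensembl gene IDs in the deposited tables. All 30 had an adjusted p in the RNA immunoprecipitation table, and 29 had one in each of the 10 tables from U2OS cells. The exception was SPATA18, a mitochondrial quality control gene, which had at most 2 reads in any U2OS library.

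The study concerned G3BP1, an RNA-binding protein that nucleates stress granules, and 24 of its 72 libraries, in 11 groups, were used here. RNA immunoprecipitation with sequencing (RIP-seq) set 3 immunoprecipitated libraries (IP) beside 3 input libraries. These came from FlpIn 293 Trex cells, an embryonic kidney line with stable FLAG-G3BP1, induced for 24 h with 1 ug/mL tetracycline in both groups. All RNA-seq groups were U2OS osteosarcoma cells with 2 libraries each. Experiment 1 had untreated wild-type cells, untreated cells with G3BP1/2 knockout, and knockout cells 24 h after transient Lipofectamine transfection with a G3BP1 transgene (rescue). Experiment 2 had untreated knockout cells, knockout cells 24 h after transfection with a WT G3BP1 transgene (wild-type rescue), and knockout cells 24 h after transfection with G3BP1 that lacks its NTF2 domain (NTF2-deletion rescue). Each of these 3 was also taken after 200 uM sodium arsenite for 2 h. Every group of experiment 2 therefore carried the knockout, and no wild-type cells were part of it. The knockout groups of both experiments had no transfection, so transgene and transfection cannot be told apart in a comparison of rescue with knockout. How many clones the knockout cells represent is not given in the sources used here. Nor is it given whether libraries of a group came from separate cultures, so p-values measure the spread between these samples, which may be technical.

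The p53 protein is held low in unstressed cells by MDM2, a ubiquitin ligase that is itself a p53 target, with its relative MDM4. DNA damage and other stresses free p53, which then binds pairs of a short sequence, the half-site, near its targets and activates their transcription. The targets stop the cell cycle, repair DNA, adjust metabolism or start apoptosis, and several of them feed back on p53. The 293 lines hold adenoviral E1 genes, whose products bind regulators of the cell cycle. Sodium arsenite causes oxidative stress and stops most translation, and it is a standard way to induce stress granules. The NTF2-like domain of G3BP1 is its dimerization domain and is needed for stress granule assembly.

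RefSeq promoter entries on GRCh38.p14, in which the 250 bases before the transcript start were searched, were at hand for 24 of the 30 genes, with 35 entries among them. The p53 half-site consensus, searched on both strands, was present in 5 of these 24 genes (AEN, FAS, FDXR, PLK2 and SESN1) and in 5 of their 35 entries. It was present in 5.57% of all 35116 promoter entries. The GC box GGGCGG was present in 27 of the 35 entries, from 20 of the 24 genes, and in 42.6% of all entries. The AP-1 motif TGANTCA was in 4 of the 35 entries, from 3 genes (BBC3, FAS and MDM2), and in 6.57% of all entries. No half-site match overlapped a match of either other motif. The promoters of 4 are printed because their genes moved in opposite directions in the rescues of experiment 2, AEN and PLK2 higher, FDXR and FAS lower. The half-site match is in capitals, each sequence runs 5′ to 3′ on the strand of its gene, and it ends at the base before the transcript start. They are AEN at chr15:88621090-88621339 (plus strand), PLK2 at chr5:58460087-58460336 (minus strand), FDXR at chr17:74872995-74873244 (minus strand) and FAS at chr10:88991181-88991430 (plus strand).
AEN: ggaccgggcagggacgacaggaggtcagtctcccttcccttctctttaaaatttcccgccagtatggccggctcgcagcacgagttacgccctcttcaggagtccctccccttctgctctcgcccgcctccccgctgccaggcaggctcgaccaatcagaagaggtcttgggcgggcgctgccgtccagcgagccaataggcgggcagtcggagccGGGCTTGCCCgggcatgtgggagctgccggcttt
PLK2: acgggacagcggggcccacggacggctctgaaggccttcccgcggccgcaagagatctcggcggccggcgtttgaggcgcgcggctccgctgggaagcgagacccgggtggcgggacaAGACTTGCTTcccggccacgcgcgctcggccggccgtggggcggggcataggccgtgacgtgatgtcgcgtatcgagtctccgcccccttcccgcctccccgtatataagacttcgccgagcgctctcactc
FDXR: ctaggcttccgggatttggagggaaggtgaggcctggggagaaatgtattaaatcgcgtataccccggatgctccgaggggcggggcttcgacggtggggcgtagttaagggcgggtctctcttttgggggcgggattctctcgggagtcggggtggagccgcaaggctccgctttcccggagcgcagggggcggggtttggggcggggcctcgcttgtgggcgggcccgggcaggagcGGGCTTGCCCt
FAS: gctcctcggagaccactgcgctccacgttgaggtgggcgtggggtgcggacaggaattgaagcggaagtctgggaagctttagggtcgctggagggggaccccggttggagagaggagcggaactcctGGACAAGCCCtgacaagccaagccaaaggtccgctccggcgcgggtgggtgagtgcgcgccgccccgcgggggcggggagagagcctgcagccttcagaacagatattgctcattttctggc
The matches lay 25 to 34 bases before the start of AEN, 123 to 132 before PLK2, 2 to 11 before FDXR and 113 to 122 before FAS. AEN and FDXR shared the same match, GGGCTTGCCC. The match of SESN1, 40 to 49 bases before one of its starts, was GGACAAGTCT. These are matches of letters only, and no binding was measured.

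Gene reads averaged 12.2 M (1e6) per library in the RIP table, 44.2 to 46.95 M in experiment 1 and 11.99 to 17.9 M in experiment 2. For the 29 genes tested in U2OS cells, the higher library of a pair exceeded the lower by a median of 1.03 to 1.05 times in the 9 U2OS groups, and by 1.41 times at most. G3BP1 transcripts were still counted in the knockout cells, at a log2 fold change of -0.56 against wild type in the authors' deposited table. In experiment 1 the rescue table gave -0.69 for knockout over rescue. The authors' deposited tables of experiment 2 gave 7.31 and 7.75 for the wild-type and NTF2-deletion rescues over knockout. G3BP2 was at -0.36 for knockout over wild type and at -0.25 for knockout over rescue in experiment 1. It was at 0.55 and 0.57 for the 2 rescues over knockout in experiment 2, in the authors' deposited tables. Of 6 markers of U2OS cells, COL1A1, VIM, RUNX2 and PRRX1 had base means over 10 in the tables of knockout against wild type and of wild-type rescue against knockout, COL1A2 was at 17.5 and 8.99, and TWIST1 was at 0. Of 6 markers of the kidney line, PAX8 was at 0 in the RIP table and the other 5 were above 20. The markers were mixed in setting the lines apart. The table of wild-type rescue against knockout had a depth close to that of the RIP table. COL1A1 had a base mean of 26.4 in the RIP table and 5839 in that table. EPCAM, NEFL, PAX2 and CDH1 had 911, 1078, 45.8 and 22.8 in the RIP table, against 93.7, 448, 8.62 and 8.62. TWIST1, PRRX1, LHX1 and PAX8 went the other way, at 210, 85.9, 36.9 and 0 against 0, 17.3, 52.9 and 12.7. TWIST1 and VIM, of the U2OS list, had base means of 209.97 and 11619 in the RIP table. NEFL, EPCAM, LHX1 and PAX2, of the kidney list, had 3823, 453, 307 and 146 in the deeper table of knockout against wild type.

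The first comparison asked what the loss of G3BP1 and G3BP2 changed. Of 29 tested p53 pathway genes, 18 fell in knockout against wild-type cells and 2 rose, by the authors' DESeq2 test with an adjusted p under 0.05. Over all genes tested, 19.4% were called lower and 18.4% higher. These 25724 genes include many of low counts. A base mean of 100 was reached by 13774 genes, and by each of the 29. Shares in the other comparisons likewise include genes of low counts, and shares among genes of like counts were not computed. The median log2 fold change was -0.32 for the 29 genes and 0.01 for all genes. In the same table, 4 of 5 tested markers of U2OS cells were called lower, and of 6 markers of the kidney line 2 were lower and 1 higher. In bulk RNA, fewer cells of a kind and less RNA per cell cannot be told apart, and the part of these markers in the result was not tested.

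Among the feedback regulators, MDM2 had 11133 and 11266 normalised reads in wild-type cells, 8757 and 9072 in knockout cells and 11159 and 11266 in rescued cells. Both knockout libraries were the lowest, and the other groups overlapped. MDM2 fell by 0.33 in the authors' deposited table (SE 0.05, adjusted p 6.5e-10). MDM4, which binds p53 and blocks its activation domain, went the other way, with 4927 and 5261 reads in wild type, 6671 and 6768 in knockout and 5471 and 5556 in rescue. Its log2 fold change in the authors' deposited table was 0.40 (SE 0.06, adjusted p 1.79e-10). PPM1D, the phosphatase WIP1 that switches off the damage kinases, stood at 0.14 in the authors' deposited table and was not called (adjusted p 0.0524).

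The arrest and growth genes fell in 5 of 7 cases. CDKN1A encodes p21, the inhibitor of cyclin-dependent kinases through which p53 stops the cell cycle. It had 14584 and 14912 reads in wild type, 9070 and 9462 in knockout and 13734 and 13812 in rescue. The knockout libraries stood below all others, and the wild-type mean was 1.59 times the knockout mean. The log2 fold change was -0.67 in the authors' deposited table (SE 0.05, adjusted p 2.21e-39). The polo-like kinases PLK2 and PLK3 fell by 0.58 and 0.89 in the authors' deposited table. PLK2 had 12698 and 12922 reads in wild type, 8412 and 8667 in knockout and 12834 and 12849 in rescue. PLK3 had 1244 and 1335, then 670 and 709, then 1065 and 1070. GADD45A, a stress sensor that inhibits the mitotic kinase complex, fell by 0.32 and CCNG1, cyclin G1, by 0.35 in the authors' deposited table. The antiproliferative genes BTG1 and BTG2 stood at 0.01 and 0.05 in the authors' deposited table and were not called.

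Of 11 tested apoptosis and survival genes, 5 fell, 1 rose and 5 were not called. TP53I3, a quinone oxidoreductase, had 2642 and 2801 reads in wild type, 1253 and 1330 in knockout and 2281 and 2459 in rescue. All 3 groups were separate, and the fold change of knockout over wild type was -1.07 in the authors' deposited table (SE 0.08, adjusted p 2.64e-35). FAS, a death receptor, had 2602 and 2794 reads in wild type, 1579 and 1690 in knockout and 1962 and 1987 in rescue. Its fold change was -0.72 in the authors' deposited table (SE 0.08, adjusted p 6.81e-17), and the rescue libraries lay between the other groups. BAX, the pore-forming BCL2 family member, fell by 0.46, ZMAT3, an RNA-binding regulator of splicing, by 0.52 and AEN, an exonuclease, by 0.18 in the authors' deposited table. The gene that rose was BBC3, which encodes the BH3-only protein PUMA. It had 825 and 888 reads in wild type, 1248 and 1318 in knockout and 889 and 948 in rescue, and its fold change was 0.57 in the authors' deposited table (SE 0.11, adjusted p 3.82e-07). The authors' deposited table gave 0.00 for PMAIP1, which encodes the BH3-only protein NOXA.

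The 5 genes of DNA repair and nucleotide supply all fell. RRM2B, the p53-inducible subunit of ribonucleotide reductase, had 11921 and 12232 reads in wild type, 5647 and 5892 in knockout and 10212 and 10355 in rescue. The wild-type mean was 2.09 times the knockout mean, and the log2 fold change was -1.06 in the authors' deposited table (SE 0.05, adjusted p 3.11e-87). DDB2 and XPC, which recognise damage in nucleotide excision repair, fell by 0.41 and 0.37 in the authors' deposited table. POLH, the translesion polymerase eta, fell by 0.31 and FBXO22, an F-box protein of a ubiquitin ligase, by 0.34 in the authors' deposited table. Of the metabolic genes, FDXR, ferredoxin reductase, fell the most of all 29, with 3959 and 4013 reads in wild type, 1765 and 1791 in knockout and 2964 and 3174 in rescue. Its fold change was -1.16 in the authors' deposited table (SE 0.07, adjusted p 4.08e-58). TIGAR, a fructose bisphosphatase, fell by 0.25, and SESN1, a sestrin that restrains the kinase complex mTORC1, stood at -0.22 and was not called in the authors' deposited table (adjusted p 0.112).

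**Figure D1:**
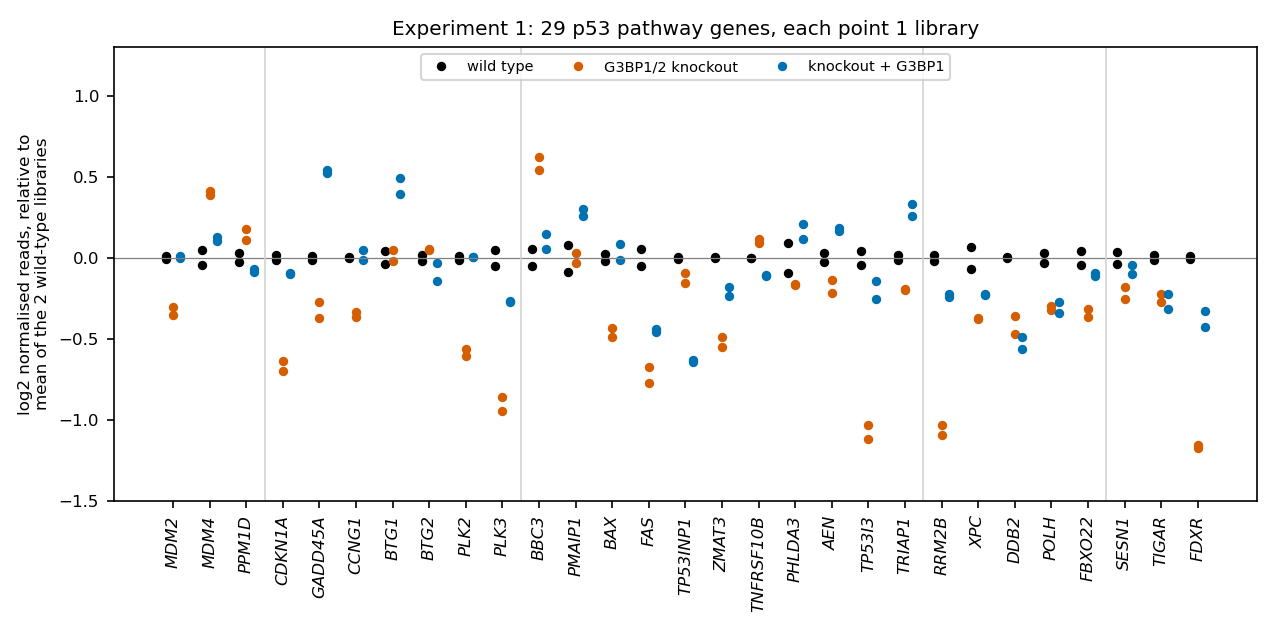
Normalised reads of the 29 tested genes in the 6 libraries of experiment 1, as log2 relative to the mean of the 2 wild-type libraries; each point is 1 library and grey lines separate feedback, arrest, apoptosis, repair and metabolic genes. Knockout libraries lie furthest below the wild-type libraries for FDXR, TP53I3 and RRM2B, and the 2 genes called higher, MDM4 and BBC3, lie above them.

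The rescue of experiment 1 was compared with the same knockout libraries, so the values are given beside those above and not as a repeat. With G3BP1 put back, 18 of 29 genes were higher than in knockout cells and 5 were lower, where 21.5% and 16.1% of all genes were called in these directions. The median of knockout over rescue was -0.31, against 0.01 for all genes. For this comparison, 4 of 5 tested markers of U2OS cells were called lower in knockout, with a median of -0.79, and of 6 markers of the kidney line 3 were lower and 1 higher. Their part in the result was not tested. GADD45A, with 2820 and 2870 reads in wild type and 2195 and 2348 in knockout, reached 4085 and 4142 in rescue. All 3 groups were separate, the rescue was the highest, and rescue over knockout was 0.85 (SE 0.07, adjusted p 4.98e-36, from the authors' deposited table with its sign turned). In the authors' deposited table, rescue over knockout was 0.83 for RRM2B, 0.86 for TP53I3, 0.78 for FDXR, 0.57 for CDKN1A and 0.59 for PLK2. The 5 genes that fell with rescue were MDM4, PPM1D, BBC3, TNFRSF10B, the TRAIL receptor DR5, and TP53INP1, an autophagy and stress protein. TP53INP1 had 2883 and 2911 reads in wild type, 2604 and 2710 in knockout and 1857 and 1871 in rescue. Rescue over knockout was -0.50 for TP53INP1 in the authors' deposited table (SE 0.07, adjusted p 3.72e-11), and the rescued libraries were below both other groups.

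Wild-type and rescued cells were also compared directly. Here 11 of 29 genes were higher in wild type and 6 were lower, beside 15.2% and 20.4% of all genes. The 11 included 4 of the 5 repair genes, all but FBXO22, with DDB2 at 0.51 and RRM2B at 0.22 in the authors' deposited table. DDB2 had 4899 and 4922 reads in wild type, 3543 and 3823 in knockout and 3322 and 3497 in rescue, so the rescued libraries lay below the knockout libraries. Knockout over rescue was 0.11 for DDB2 in the authors' deposited table and was not called (adjusted p 0.201). The 6 lower in wild type were GADD45A, BTG1, PMAIP1, AEN, PHLDA3, an inhibitor of the kinase AKT, and TRIAP1, an inhibitor of apoptosis. GADD45A was at -0.54 in the authors' deposited table (SE 0.06, adjusted p 6.12e-17). CDKN1A, at 0.09 (adjusted p 0.111), and MDM2, at -0.01 (adjusted p 0.854), were not called in the authors' deposited table. The calls of PHLDA3 and TP53I3 were lost without a filter on low counts (adjusted p 0.0794 and 0.0559), and that of PHLDA3 also after centring (adjusted p 0.169).

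Experiment 2 put wild-type or NTF2-deletion G3BP1 into knockout cells. With wild-type G3BP1, 9 of 29 genes rose and 14 fell, against 23% and 19.1% of all genes called higher and lower. With the NTF2-deletion form, 10 rose and 13 fell, against 22.8% and 18.7%. The members were spread in both directions by role: of 7 arrest and growth genes 5 rose and 2 fell in each rescue, while the 3 metabolic genes fell in each. The median over all genes whose base mean reached 100 was itself 0.18 and 0.17 in these tables, and fold changes are read beside that shift. Of 5 tested markers of U2OS cells 2 were called higher and 2 lower with wild-type G3BP1, and of 6 markers of the kidney line 0 were higher and 2 lower. Their part in these results was not tested.

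GADD45A moved furthest upward. It had 420 and 440 reads in knockout cells, 2885 and 2914 with wild-type G3BP1 and 2359 and 2463 with the NTF2-deletion form. The groups were separate, and the rescue means were 6.75 and 5.61 times the knockout mean. The log2 fold changes were given in the authors' deposited tables as 2.74 (SE 0.09, adjusted p 3.54e-182) and 2.47 (SE 0.10, adjusted p 2.41e-129). CDKN1A rose less, from 1877 and 1882 reads to 2594 and 2655 with wild-type and 2642 and 2724 with NTF2-deletion G3BP1. Its fold changes were 0.48 and 0.51 in the authors' deposited tables. PLK2 went from 1236 and 1310 reads to 2182 and 2264 and to 1862 and 1890, and PLK3 from 239 and 253 to 449 and 513 and to 409 and 469. For BTG1 the authors' deposited tables gave 1.18 and 0.98, and for its relative BTG2 they gave -1.25 in each. BTG2 had 363 and 369 reads in knockout, 146 and 155 with wild-type and 124 and 175 with NTF2-deletion G3BP1, the least even pair of libraries among these genes.

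Among the apoptosis genes, TP53INP1 fell the furthest. It had 788 and 869 reads in knockout cells, 87 and 88 with wild-type G3BP1 and 63 and 72 with the NTF2-deletion form. The knockout mean was 9.47 and 12.3 times the rescue means, and the fold changes were given in the authors' deposited tables as -3.17 (SE 0.18, adjusted p 5.29e-68) and -3.53 (SE 0.19, adjusted p 1.53e-76). The genes of the BH3-only proteins moved apart. BBC3 had 326 and 344 reads in knockout and 126 and 132 with wild-type G3BP1, whereas PMAIP1 had 411 and 463 in knockout and 1091 and 1106 with wild-type G3BP1. The authors' deposited table of that rescue gave -1.33 for BBC3 and 1.32 for PMAIP1. The death receptor genes moved apart as well, with FAS at -0.99 and TNFRSF10B at 0.76 in the authors' deposited table. AEN had 1075 and 1113 reads in knockout, 2549 and 2631 with wild-type and 2646 and 2743 with NTF2-deletion G3BP1, and its fold changes were 1.24 and 1.29 in the authors' deposited tables. BAX was not called in either rescue, at -0.08 and 0.10 in the authors' deposited tables.

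DDB2 fell the most of the repair genes, from 1060 and 1100 reads in knockout to 286 and 304 with wild-type and 361 and 391 with NTF2-deletion G3BP1. Its fold changes were given in the authors' deposited tables as -1.85 (SE 0.13, adjusted p 2.12e-43) and -1.51 (SE 0.13, adjusted p 2.7e-31). POLH fell by 0.79 and 0.77 in the authors' deposited tables, RRM2B and XPC were not called, and FBXO22 was called higher at 0.28 in each of the authors' deposited tables. The FBXO22 call was lost in both rescues when fold changes were centred on the median gene (adjusted p 0.474 and 0.426). FDXR fell from 434 and 466 reads to 194 and 204 and to 188 and 236, with -1.15 and -1.06 in the authors' deposited tables. The feedback genes MDM2 and MDM4 overlapped knockout in both rescues, and PPM1D fell by 0.40 and 0.45 in the authors' deposited tables.

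Whether the NTF2 domain mattered was asked by testing the difference of the rescue effects gene by gene. None of the 29 genes was called, by a normal test on the fold changes and their standard errors with Benjamini-Hochberg adjustment, and 1 (PLK2) had an unadjusted p under 0.05. Over 16210 genes, 0.0185% were called lower with wild-type than NTF2-deletion G3BP1 and 0% higher. Both effects rest on the same knockout libraries, which makes this standard error too large for their difference, so a missed threshold does not show that the forms act alike. The largest differences were 0.36 for TP53INP1 (SE 0.26) and -0.35 for DDB2 (SE 0.18), and for PLK2 the difference was 0.24 (SE 0.12, adjusted p 1.00). For GADD45A it was 0.27 (SE 0.14).

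**Figure D2:**
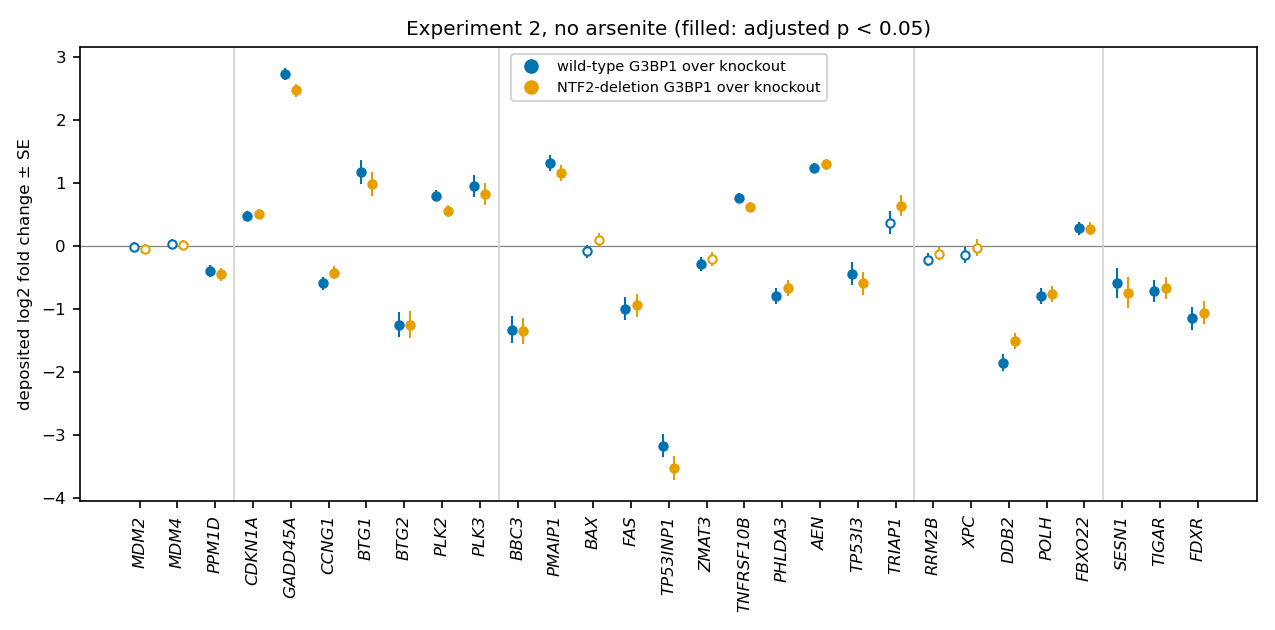
Deposited log2 fold change over knockout, with the authors' standard error, of the 29 tested genes in experiment 2 without arsenite; blue, wild-type G3BP1; orange, NTF2-deletion G3BP1; filled points passed an adjusted p of 0.05 and grey lines separate the roles. The pairs lie close together, from GADD45A at 2.74 and 2.47 to TP53INP1 at -3.17 and -3.53.

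The wild-type G3BP1 rescue was thus made in both experiments, with no library in common. Among genes called in both, 18 were p53 pathway genes, and 11 of them (61.1%) had the same direction, where 88.6% of 5757 genes did. The call of TP53I3 in experiment 2 was lost without a filter on low counts (adjusted p 0.0692), and that of FBXO22 after centring (0.10, adjusted p 0.474). Genes that rose in both were 8 (AEN, BTG1, CDKN1A, FBXO22, GADD45A, PLK2, PLK3 and PMAIP1) and those that fell in both were 3 (BBC3, PPM1D and TP53INP1). Another 6 rose with rescue in experiment 1 and fell in experiment 2 (CCNG1, FAS, FDXR, PHLDA3, TP53I3 and ZMAT3), and 1 did the opposite (TNFRSF10B). FDXR went from 0.78 to -1.15 and TP53I3 from 0.86 to -0.44 in the authors' deposited tables, as rescue over knockout. By a test of the difference itself, added after seeing the data, 22 of 29 genes differed between the experiments. As a signed log2 value, rescue over knockout was higher in experiment 2 for 6 of them and lower for 16, beside 20.3% and 17% of 16369 genes. Of the 16, 11 were above 0 in experiment 1 and below 0 in experiment 2. Among these 11, SESN1 and POLH were not called in experiment 1, and MDM2, BAX and RRM2B were not called in experiment 2. The rest of the 11 were called in both, as named above. The other 5 (BBC3, BTG2, DDB2, TIGAR and TP53INP1) were below 0 in both and lay further from 0 in experiment 2. In experiment 1, BTG2, DDB2 and TIGAR were not called. TP53INP1 went from -0.50 to -3.17 and DDB2 from -0.11 to -1.85 in the authors' deposited tables. Of the 6, 4 (AEN, BTG1, GADD45A and PMAIP1) were above 0 in both, and MDM4 and TNFRSF10B went from below to above 0. MDM4 was at -0.28 in experiment 1 and at 0.03, not called, in experiment 2 in the authors' deposited tables. The median difference was -0.58 for the 29 genes and 0.03 for all genes. CDKN1A was among the 7 without a call, at 0.57 in experiment 1 and 0.48 in experiment 2 in the authors' deposited tables (adjusted p of the difference 0.465).

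Other values differed between the experiments beside these genes. The rescue changed G3BP1 far more in experiment 2, at 7.31 against a change of -0.69 for knockout over rescue in experiment 1, and the depth per library was lower in experiment 2. The submitters' processing notes list STAR 2.7.0f for experiment 1 and 1.5.3 for experiment 2. The part of each of these in the difference was not tested.

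**Figure D3:**
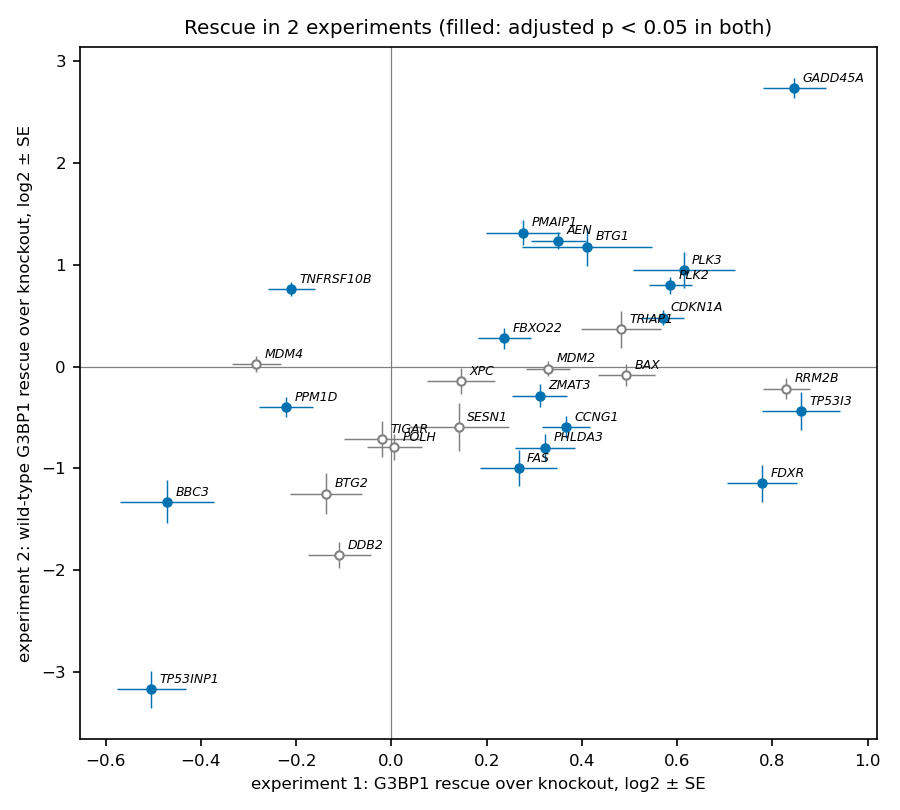
Rescue over knockout in experiment 1 (horizontal) against wild-type rescue over knockout in experiment 2 (vertical) for 29 genes, as deposited log2 fold changes with standard errors; filled blue points were called in both. Of the filled points, 8 lie at the upper right, 3 at the lower left, 6 at the lower right, among them FDXR and TP53I3, and TNFRSF10B alone at the upper left.

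Arsenite was applied for 2 h in 3 backgrounds. In knockout cells 9 of 29 genes rose and 1 fell, beside 8.56% of all genes called higher and 10.9% lower. In wild-type rescue 4 rose and 0 fell, beside 8.18% and 12.2%, and in NTF2-deletion rescue 3 rose and 0 fell, beside 2.43% and 6.14%. The genes that rose in knockout cells were the feedback genes MDM2 and PPM1D, 5 of 7 arrest genes (CDKN1A, GADD45A, BTG2, PLK2 and PLK3), and PMAIP1 and TNFRSF10B. None of the 5 repair genes or the 3 metabolic genes was called in knockout cells. FAS was the gene that fell, from 426 and 430 reads to 248 and 263, with -0.69 in the authors' deposited table (SE 0.16, adjusted p 0.000236).

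GADD45A had 420 and 440 reads in knockout cells and 1396 and 1455 after arsenite, 3.32 times as many. With wild-type G3BP1 it went from 2885 and 2914 to 3833 and 3877, and with NTF2-deletion G3BP1 from 2359 and 2463 to 3183 and 3190. The treated libraries were above the untreated ones in all 3 backgrounds, but treated knockout cells stayed below untreated rescued cells. The fold changes were given in the authors' deposited tables as 1.67 (SE 0.11, adjusted p 7.54e-47), 0.35 (SE 0.04, adjusted p 4.66e-15) and 0.37 (SE 0.06, adjusted p 4.47e-08). CDKN1A likewise rose in each, from 1877 and 1882 to 2699 and 2764 in knockout, from 2594 and 2655 to 3210 and 3217 in wild-type rescue, and from 2642 and 2724 to 3176 and 3267 in NTF2-deletion rescue. Its fold changes were 0.53, 0.23 and 0.24 in the authors' deposited tables. The remaining calls in the rescues were AEN at 0.26 and MDM2 at 0.14 with wild-type G3BP1, and POLH at 0.31 with the NTF2-deletion form, in the authors' deposited tables. The MDM2 call was lost after centring (adjusted p 0.0531) and without a filter on low counts (adjusted p 0.0637), and the POLH call without that filter (adjusted p 0.0922).

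BTG2 showed the contrast between the backgrounds at a lower level. It went from 363 and 369 reads to 807 and 836 in knockout cells, from 146 and 155 to 200 and 207 with wild-type G3BP1, and from 124 and 175 to 189 and 190 with the NTF2-deletion form. The fold change was 1.11 in knockout cells in the authors' deposited table (SE 0.13, adjusted p 1.11e-15), and the rescues, at 0.31 and 0.19, were not called in the authors' deposited tables. PLK2 rose from 1236 and 1310 reads to 2210 and 2233 in knockout cells, which was the range of the untreated wild-type rescue. In rescued cells PLK2 had 2182 and 2264 reads before and 2383 and 2575 after arsenite, and 1862 and 1890 before and 1982 and 1992 after with the NTF2-deletion form. PPM1D rose from 1314 and 1391 to 2012 and 2089 in knockout cells, against 1023 and 1025 to 1166 and 1185 in wild-type rescue.

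The arsenite responses of the backgrounds share no library, so their differences could be tested directly. As a signed log2 value, the response was lower in wild-type rescue than in knockout cells for 7 of 29 genes and higher for 0, beside 2.68% and 1.82% of 15648 genes. The 7 were GADD45A, at -1.33 (SE 0.12, adjusted p 1.84e-25), BTG2 at -0.80, PLK2 at -0.69, PMAIP1 at -0.50, PPM1D at -0.45, TNFRSF10B at -0.36 and CDKN1A at -0.30. With the NTF2-deletion form the response was lower for 5 genes and higher for 0, beside 3.08% and 4.04% of 15442 genes. These were GADD45A at -1.30 (SE 0.13, adjusted p 6.77e-22), BTG2 at -0.93, PLK2 at -0.72, PPM1D at -0.45 and CDKN1A at -0.29. The last call was lost once the shrinkage of the fold changes was undone (adjusted p 0.0583) and without a filter on base mean (adjusted p 0.0715). With the shrinkage undone, BTG2 came close to the threshold, at -0.84 (adjusted p 0.0433, against 5.44e-05 from the deposited values). GADD45A, PLK2 and PPM1D stayed called, at -1.34, -0.73 and -0.45. Between the 2 rescues 0 of 29 genes differed in response, with 0 at an unadjusted p under 0.05, beside 0.101% of 15865 genes called higher and 0.227% lower with wild-type G3BP1. For GADD45A that difference was -0.02 (SE 0.07) and for CDKN1A -0.01 (SE 0.07).

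**Figure D4:**
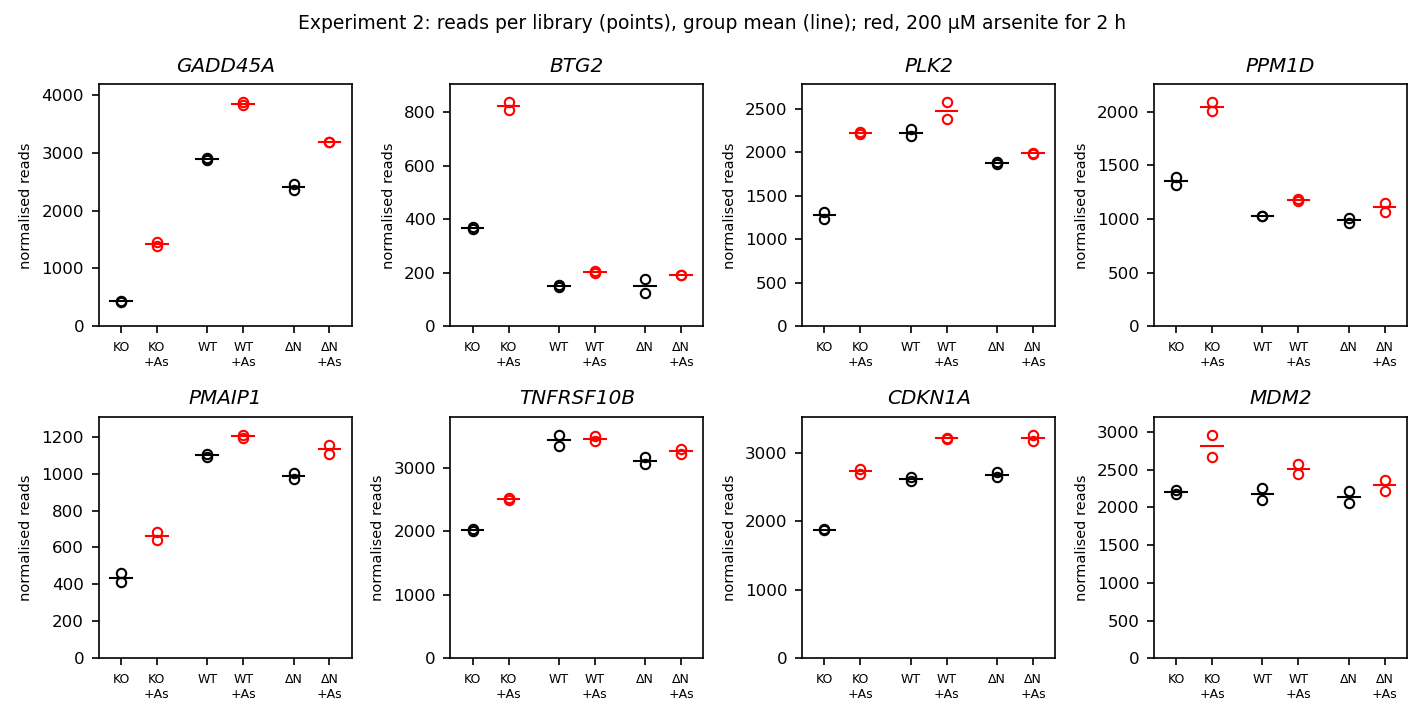
Normalised reads of 8 genes in the 12 libraries of experiment 2, each point 1 library and each line a group mean; black, untreated; red, 200 uM arsenite for 2 h; KO, knockout; WT, wild-type rescue; ΔN, NTF2-deletion rescue. The step from black to red is widest in knockout cells, and TNFRSF10B overlaps in wild-type rescue. GADD45A goes from 420 and 440 to 1396 and 1455 reads in knockout cells. In reads its step is nearly as wide in wild-type rescue, where it starts from a higher untreated level.

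The authors also compared arsenite-treated rescued cells with untreated knockout cells, the same knockout libraries as above. With wild-type G3BP1 and arsenite 11 of 29 genes were higher and 10 lower, beside 25.1% and 19.8% of all genes, and with the NTF2-deletion form 10 and 12, beside 23.3% and 19.6%. The medians over genes whose base mean reached 100 were 0.22 and 0.19. GADD45A was at 3.15 and 2.88 and TP53INP1 at -3.04 and -2.95 in the authors' deposited tables. MDM2 was called higher with wild-type G3BP1 and arsenite, at 0.18 in the authors' deposited table (adjusted p 0.0216), but stood at -0.041 after centring on the median (adjusted p 0.675). The FBXO22 calls of both comparisons were also lost after centring (adjusted p 0.233 and 0.777), and without a filter on low counts those of TP53I3 in the first (adjusted p 0.0522) and of SESN1 and FBXO22 in the second (adjusted p 0.0597 and 0.0679).

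RIP-seq in the kidney line asked which transcripts were recovered with G3BP1. Of the 30 genes, 17 were higher in IP than in input and 9 were lower, beside 24.7% and 31.4% of all genes. Their median was 0.42, against -0.26 for all genes tested and 0.12 for those whose base mean reached 100. Values per library could not be solved from the RIP table, so only the authors' means are given. By role, 5 of 7 arrest genes were higher and 0 lower, 7 of 12 apoptosis genes were higher and 4 lower, and 2 of 3 feedback genes were lower with 0 higher.

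BAX was the highest of the 30, at 1.52 in the authors' deposited table (SE 0.15, adjusted p 5.92e-23). TP53I3 at 1.26, PMAIP1 at 1.11 and BBC3 at 1.02 followed in the authors' deposited table. In the authors' deposited table CDKN1A was at 0.64 (SE 0.14, adjusted p 7.75e-06, base mean 604) and GADD45A at 0.85 (SE 0.16, adjusted p 4.86e-07). At the other end, the authors' deposited table gave MDM4 at -1.97 (SE 0.39, adjusted p 1.88e-06) and MDM2 at -1.77 (SE 0.14, adjusted p 6.4e-34). TIGAR at -1.63, ZMAT3 at -1.52, POLH at -1.32 and XPC at -1.22 came next in the authors' deposited table. Within a role the repair genes were split, with DDB2 at 0.83 and RRM2B at 0.62 in the authors' deposited table and POLH and XPC below 0. PLK2, PLK3, FAS and PPM1D were not called. The calls of AEN and FBXO22, each at 0.34 in the authors' deposited table, were lost after centring (adjusted p 0.208 and 0.209) and without a filter on low counts (adjusted p 0.058 and 0.0599).

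The order of the RIP values ran with gene length. The 17 genes higher in IP had a median RefSeq gene length of 10.5 kb (range 2.42 to 110.5 kb), and the 9 lower genes one of 42.5 kb (range 23.4 to 55.3 kb). Across the 30 genes Spearman's rho of gene length and fold change was -0.66, and across 16674 tested genes with a RefSeq length it was -0.25. These are correlations across genes of the same 6 libraries, given as a description, and genes are not independent replicates. Gene length includes introns, and transcript length was not used here. SESN1, the longest of the 30 at 110.5 kb, was higher in IP, at 0.56 in the authors' deposited table.

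**Figure D5:**
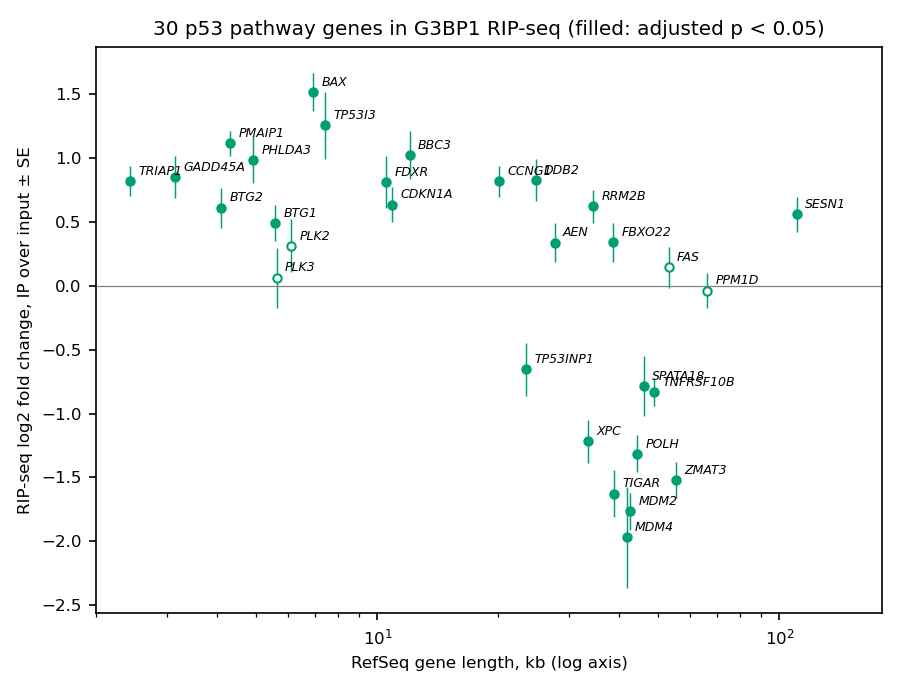
RIP-seq log2 fold change of IP over input, with the authors' standard error, against RefSeq gene length in kb on a log axis, for the 30 genes; filled points passed an adjusted p of 0.05. The 9 genes called lower lie between 23.4 and 55.3 kb, and SESN1, at 110.5 kb, lies above 0.

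Genes upstream of p53 and further p53 targets were counted from 2 lists. Of 20 tested upstream genes, 4 were higher and 7 lower in knockout cells, against wild type, and the median was 0.02. Of 34 tested further targets, 10 were higher and 17 lower in knockout cells, with a median of -0.22. Over all genes 18.4% were called higher and 19.4% lower. Among called genes of both lists whose base mean reached 100, NINJ1, a cell adhesion and membrane rupture protein, was highest at 0.99 and PANK1, pantothenate kinase, lowest at -0.95 in the authors' deposited table.

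In the wild-type rescue of experiment 2, 10 upstream genes were higher and 6 lower of 20, and 8 further targets were higher and 16 lower of 33, beside 23% and 19.1% of all genes. SESN2 and SESN3, sestrins like SESN1, marked the ends at 1.34 and -4.63 in the authors' deposited table. With NTF2-deletion G3BP1 the counts were 11 and 6 of 20 and 6 and 15 of 33, beside 22.8% and 18.7% of all genes, with SERTAD1 at 1.25 and SESN3 at -4.45 in the authors' deposited table. With arsenite in knockout cells, 2 of 20 upstream genes were higher and 1 lower, and 5 of 33 further targets were higher and 6 lower, beside 8.56% and 10.9% of all genes. IER5, an immediate early gene, was the highest in each background, at 2.14, 1.07 and 0.69 in the authors' deposited tables. The lowest called genes were FUCA1, a lysosomal fucosidase, at -1.09 in knockout cells and PERP, a desmosomal membrane protein, at -0.56 and -0.45 in the wild-type and NTF2-deletion rescues in the authors' deposited tables. In RIP-seq, 10 of 20 upstream genes were higher in IP and 10 lower, beside 24.7% and 31.4% of all genes, and 14 of 36 further targets were higher and 13 lower. The called genes of both lists ran from CDKN2A, which encodes p16 and the MDM2 inhibitor ARF, at 2.29 to PRKDC, the catalytic subunit of DNA-dependent protein kinase, at -4.04 in the authors' deposited table.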

How the data were processed

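The 11 tables hold the authors' own comparisons, made with DESeq2 2.11.40.6 on STAR alignments (2.7.0f for RIP-seq and experiment 1, 1.5.3 as listed for experiment 2), per the submitters' processing notes. Per the labels' protocols, libraries were made with a directional kit from poly-A RNA after TRIzol extraction. The counting tool, its use of strand, the annotation and the genome build are not given in the sources used here. The base mean in the deposited tables is a signal, the mean of normalised reads over the libraries of both groups. The deposited fold change is a log2 value, the deposited Wald statistic a score, and the deposited p-value and Benjamini-Hochberg adjusted p-value are the authors' own. The 4 counting lines per table were removed, and 48 libraries with an editing enzyme or their controls were not analysed here.

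Genes with an adjusted p under 0.05 were called. The deposited fold changes had been shrunk by a normal prior with an SD of 0.278 to 2.06 on the log2 scale, worked out from the tables, and an alternative undid it. Whole reads per library were solved from the base means for all 30 genes in the 18 U2OS libraries. A solution had to meet all 3 tables of experiment 1, or all 7 of experiment 2 in which the gene had reads. Normalised reads are these reads divided by size factors on 1 scale per experiment, with no replicate numbers. Tests of differences divided the difference of fold changes by the root of the summed squared standard errors, two-sided, over genes whose base mean reached 10 in both tables. Centring used the median of genes whose base mean reached 100. Scripts ran in Python 3.11.15 with NumPy 2.4.6, pandas 2.3.3 and SciPy 1.17.1 and were tested on simulated data. Named genes were all 30 members, G3BP1 and G3BP2. The highest and lowest called gene of the 2 lists whose base mean reached 100 were named for part of the comparisons. Another gene of that rule is not reported here. The members, lists and tests were chosen with earlier results of these data known. Promoter sequences and gene lengths are from RefSeq on GRCh38.p14.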

Additional observations from a re-analysis of the deposited data

Results flagged for a closer look

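Differences between groups under the same contrast were called by a test of the difference itself, on the log2 scale with Benjamini-Hochberg adjustment. For the arsenite response of wild-type rescue minus knockout, the values were -1.33 for GADD45A, -0.80 for BTG2, -0.69 for PLK2, -0.50 for PMAIP1, -0.45 for PPM1D, -0.36 for TNFRSF10B and -0.30 for CDKN1A. For NTF2-deletion rescue minus knockout they were -1.30 for GADD45A, -0.93 for BTG2, -0.72 for PLK2, -0.45 for PPM1D and -0.29 for CDKN1A.

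For rescue over knockout, experiment 2 minus experiment 1, the signed log2 value was higher in experiment 2 for 6 genes. GADD45A was at 1.89, PMAIP1 at 1.04, TNFRSF10B at 0.97, AEN at 0.89, BTG1 at 0.77 and MDM4 at 0.31. It was lower in experiment 2 for 16 genes, which includes genes that fell further there. Of the apoptosis genes, TP53INP1 was at -2.67, TP53I3 at -1.30, FAS at -1.26, PHLDA3 at -1.12, BBC3 at -0.86, ZMAT3 at -0.60 and BAX at -0.58. Of the repair and metabolic genes, FDXR was at -1.93, DDB2 at -1.74, RRM2B at -1.05, POLH at -0.80, SESN1 at -0.73 and TIGAR at -0.69. BTG2 was at -1.11, CCNG1 at -0.96 and MDM2 at -0.35. The MDM4 difference was lost after centring (0.18, adjusted p 0.108).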

How the results depend on the processing

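Undoing the shrinkage retested only the calls of difference tests, and it weakened 1 of them. For calls of the tables the deposited adjusted p was kept and the sign could not change, so these were not retested. Of 226 calls of single genes, a base mean of at least 100 kept 225 and left out TP53I3 in RIP-seq. Centring on the median kept 216, weakened 9 and reversed 1. The reversed value was MDM2 in wild-type rescue with arsenite against knockout, at -0.041 (adjusted p 0.675). Adjusting p over all genes without a filter on low counts kept 182 calls of the tables and weakened 10. With a smallest change of 0.5 on the log2 scale, calls in knockout against wild type dropped to 1 higher and 8 lower, beside 11.5% and 12.2% of all genes called at that size. In knockout against rescue of experiment 1 they dropped to 1 higher and 7 lower, beside 8.86% and 9.51%, and in wild type against that rescue to 2 higher and 1 lower, beside 7.46% and 8.27%. The arsenite calls of the wild-type and NTF2-deletion rescues dropped to 0 higher, beside 0.873% and 0.38%. In the recovered reads, every called gene kept its direction in every U2OS table when either library of a group was left out, an alternative added after seeing the data. Where the libraries of both groups did not overlap, leaving any of them out could not turn the direction. For such genes this was no test. Leave-one-out tests and the count test were not run, since reads of all genes with replicate numbers were not used here. No paired analysis was possible because the tables hold no value per numbered replicate. Precision is limited by 2 libraries per U2OS group and by the lower depth of experiment 2.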
